A study of Mus musculus with 231 samples.

Results

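The miR-15/miR-16 family was followed in peripheral blood mononuclear cells (PBMC) of mice that carried a leukemogenic fusion gene and of their controls. Its members were taken by name. They were mmu-miR-15a-5p, mmu-miR-15b-5p, mmu-miR-16-5p, mmu-miR-195a-5p, mmu-miR-322-5p and mmu-miR-497a-5p, which are 6 of 1863 mature miRNAs in the table of training counts, 6 of 1895 in the table of training CPM, in which reads are scaled to library size, and 6 of 1817 in the validation table. All 6 were present in all 3 tables.

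All mice were C57BL/6. CM mice carried a conditional Cbfb-MYH11 knock-in allele together with an interferon-inducible Cre (Cbfb56M/+/Mx1-Cre, genotype label CHW), and Ctrl mice were littermates of the same age with the genotype labels HW, CW or WT, codes that the labels do not explain. The labels say that Ctrl mice lacked the transgene, while the methods of the study allow the conditional allele without Cre in controls. Both arms received the same poly(I:C), 7 intraperitoneal doses of 14 mg/kg given every other day from an age of 6 to 8 weeks, so a Ctrl mouse shares the interferon stimulus and not the fusion gene. Mx1-Cre acts in many interferon-responsive cells, so the fusion gene is not restricted to 1 blood lineage.

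Blood was drawn from the same animals repeatedly. The training mice were 7 CM (4 female, 3 male) and 7 Ctrl (2 female, 5 male) and gave 53 and 76 small RNA libraries between month 0 and month 10. The validation mice were 10 CM (5 female, 5 male) and 6 Ctrl (3 female, 3 male) according to the labels of the single samples, although the design text of the series gives 9 CM and 7 Ctrl. They gave 60 and 42 libraries at points numbered 1 to 7 and at a point L that the labels do not explain. The number of CM mice left in the training series fell from 7 at month 0 to 5 at month 6 and 1 at month 10, so late CM values come from few animals.

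A mature miRNA finds its target transcripts mainly by pairing through its seed, bases 2 to 8 from the 5′ end. Members of this family share 1 seed and repress cyclins and other drivers of the cell cycle, and the survival factor Bcl2. They come from separate precursor clusters: miR-15a with miR-16-1 in a host transcript deleted in many chronic lymphocytic leukemias, miR-15b with miR-16-2, miR-497a with miR-195a, and miR-322 (the mouse counterpart of human miR-424) with miR-503, a pair known from myeloid differentiation. miR-16 is also abundant in red blood cells.

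The mature sequences are shown because the seed is what groups the members and because the letters after it decide which reads can be told apart. Capitals mark the seed, the letters run 5′ to 3′, and the sequences are those of RefSeq on GRCm38.p6.

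mmu-miR-15a-5p: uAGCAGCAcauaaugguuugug
mmu-miR-15b-5p: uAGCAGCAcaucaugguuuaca
mmu-miR-16-5p: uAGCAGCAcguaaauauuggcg
mmu-miR-195a-5p: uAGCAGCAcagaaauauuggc
mmu-miR-322-5p: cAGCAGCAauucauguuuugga
mmu-miR-497a-5p: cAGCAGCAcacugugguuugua

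The seed AGCAGCA occurred in 10 of the 1679 mature names of the RefSeq table. Beyond the 6 members these were mmu-miR-195b, mmu-miR-6342, mmu-miR-6353 and mmu-miR-6419. From the first base on, mmu-miR-16-5p and mmu-miR-195a-5p differed at only 2 of 21 positions, whereas mmu-miR-15a-5p and mmu-miR-15b-5p differed at 4 of 22 and mmu-miR-322-5p and mmu-miR-497a-5p at 7 of 22. The most distant pair, mmu-miR-16-5p and mmu-miR-497a-5p, differed at 11 of 22. mmu-miR-503-5p, the X-linked neighbour of miR-322, has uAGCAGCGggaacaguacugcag and so carries the seed AGCAGCG.

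By exact match to the mouse genome build NCBIM37 (mm9), mmu-miR-15b-5p lies at chr3:68813697-68813718 and 1 copy of mmu-miR-16-5p at chr3:68813840-68813861, both on the plus strand within an intron of Smc4, a condensin subunit gene, in all 4 of its transcripts that span the site. The other copy of mmu-miR-16-5p is at chr14:62250773-62250794 and mmu-miR-15a-5p at chr14:62250912-62250933, both on the minus strand within an intron of the long non-coding RNA Dleu2. mmu-miR-497a-5p (chr11:70048232-70048253, plus strand), mmu-miR-195a-5p (chr11:70048564-70048584, plus strand) and mmu-miR-322-5p (chrX:50407483-50407504, minus strand) lie in no annotated host transcript. Because mmu-miR-16-5p is the same at both loci, its level is a sum over chromosomes 3 and 14.

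Libraries differed in ways that touch these values. Training libraries held 1792809 to 7958411 counted reads (median 4437464). Of the validation libraries, only the 12 of point 5 were comparably deep (1645456 to 5445215 reads), and the other 90 held 1744 to 76906 reads, of which 36.67% to 99.11% were a single miRNA, miR-5099. From month 6 on, the serial numbers of CM mouse 3334 and Ctrl mouse 3335 change places in the sample titles. Each title also carries a number after the letter G, unexplained, which at month 4 never occurred in both arms and at month 3 did so for 1 of 5 numbers. The library of Ctrl mouse 3349 at month 2 stood apart. It held 2492 CPM of mmu-miR-16-5p against 32430 to 39121 CPM in the other 6 Ctrl libraries of that month.

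The 6 members spanned more than 3 orders of magnitude in PBMC. In the deposited CPM, mmu-miR-16-5p was by far the most abundant, with a median of 43791 CPM over all training libraries (lowest 2492, highest 109284). mmu-miR-15a-5p (median 2779 CPM, 678.4 to 6551) and mmu-miR-15b-5p (median 2695 CPM, 726.2 to 11737) followed at nearly the same median and with ranges that overlap almost entirely, so these neighbours in the order did not differ beyond their spread. mmu-miR-322-5p came next, with a median of 512.9 CPM (138.3 to 928.7). mmu-miR-195a-5p (median 34.3 CPM, 5.507 to 78.6) and mmu-miR-497a-5p (median 20.3 CPM, 3.284 to 69.77) were the least abundant and again overlapped. Every library held reads of all 6 members, and the least of these values stood above the 0.43 to 1.62 CPM that 3 reads are worth in these libraries, a floor that covers counting error only.

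Together the members took a median of 5.09% of the reads of a training library (0.814% to 9.64%). Of the family's reads, 87.3% were mmu-miR-16-5p at the median, 6.23% mmu-miR-15b-5p, 5.53% mmu-miR-15a-5p, 0.994% mmu-miR-322-5p, 0.0679% mmu-miR-195a-5p and 0.0417% mmu-miR-497a-5p. The passenger arms were rarer. mmu-miR-15b-3p had a median of 208 CPM and mmu-miR-322-3p of 118.4 CPM. The arms that tell the 2 loci of miR-16 apart, mmu-miR-16-2-3p of chromosome 3 and mmu-miR-16-1-3p of chromosome 14, had 66.74 and 7.512 CPM.

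**Figure D1:**
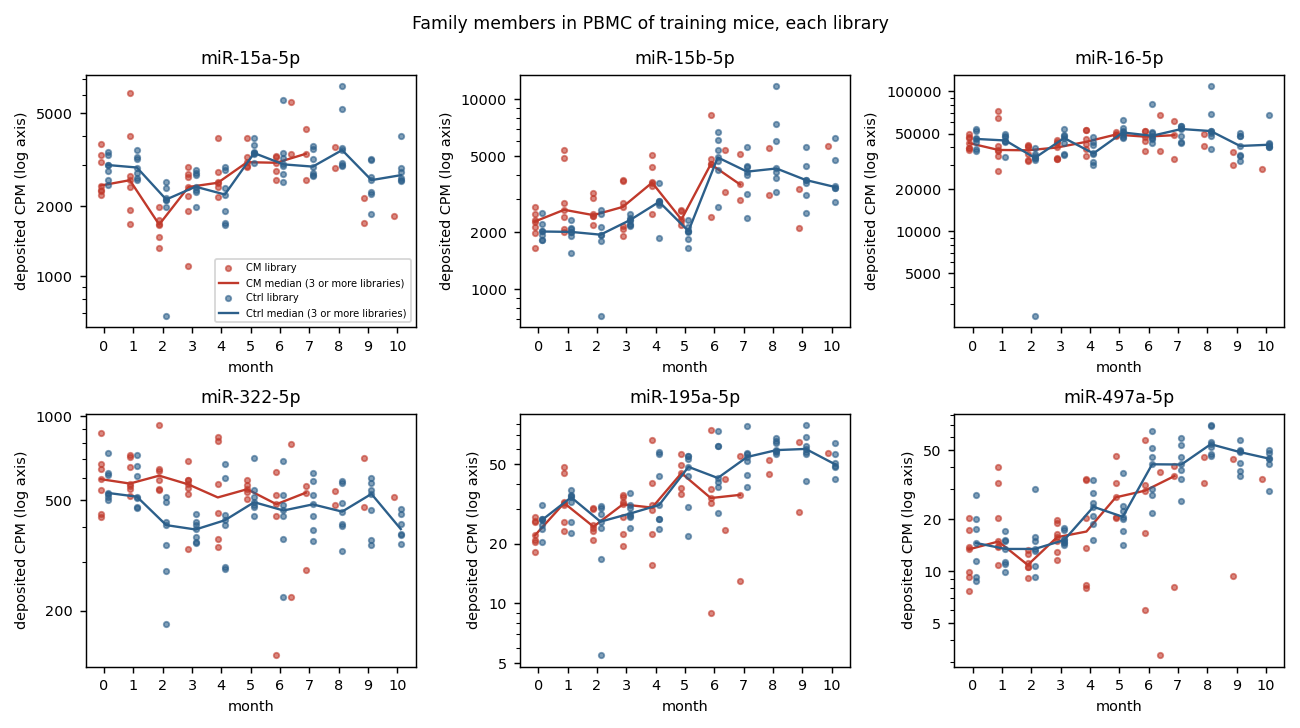
Level of each member in every training library. The y axis is deposited CPM on a log scale and the x axis is the month, with red points for CM libraries, blue points for Ctrl libraries and a line through the median of each arm where 3 or more libraries exist. Ctrl medians of miR-15b-5p, miR-195a-5p and miR-497a-5p are higher from month 6 on (4941, 42.73 and 41.54 CPM at month 6) than at month 0 (2015, 26.25 and 14.58 CPM), and CM points of miR-322-5p lie above all Ctrl points at month 2.

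The 2 deposited training tables did not agree on the most abundant member. In the count table, mmu-miR-16-5p was listed far below the reads that the CPM table implies in 69 libraries, with a log2 ratio of count to reads of -5.845 to -2.097, whereas in the other 60 libraries the ratio was -0.331 to 0.05. No library lay between. Counts ran from 309 to 346214, and reads recovered from the CPM from 76135 to 351071, except for 6788 reads in the Ctrl library of mouse 3349 at month 2. The low libraries were 28 of 53 from CM and 41 of 76 from Ctrl mice, and they were unevenly spread over months, with 5 of 7 CM and 2 of 7 Ctrl libraries at month 3 but 3 of 6 CM and 6 of 7 Ctrl libraries at month 4.

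For the other 5 members the log2 ratio varied less from library to library. mmu-miR-195a-5p, 2 bases away from mmu-miR-16-5p, was counted higher in the count table by a mean of 1.94 on the log2 scale (SD 0.25). The mean for mmu-miR-16-5p was -1.89 (SD 1.84). The remaining 4 members followed equality. Of 239 miRNAs with a mean of 100 reads or more in both tables, the median SD of the log2 ratio over libraries was 0.055, and mmu-miR-16-5p ranked 5th by that SD. Among the 20 miRNAs with the largest SD, 16 of the 17 with a RefSeq entry had 2 or more hairpins, against 3 of 187 among the rest. Whether reads of miRNAs with several hairpins were dropped in counting was not tested. Differences below are from the count table unless recovered reads are named, which are given beside every call of a member and for mmu-miR-16-5p in each training comparison between arms or over time.

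**Figure D2:**
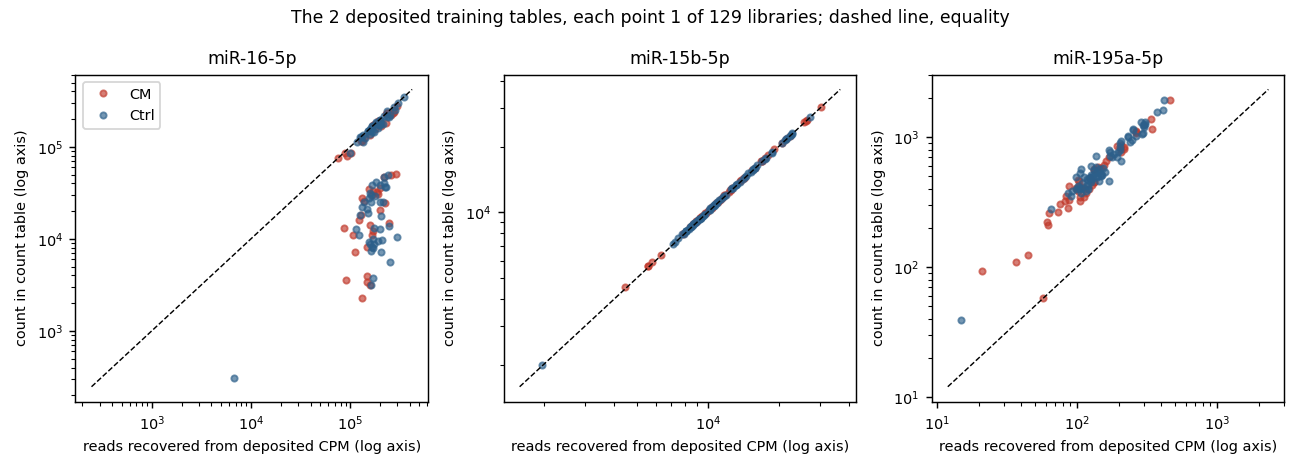
Count in the count table (y axis, log scale) against reads recovered from the deposited CPM (x axis, log scale) for 3 members, each point 1 training library, red for CM and blue for Ctrl, with the line of equality dashed. For miR-16-5p 69 libraries fall below the line as a separate cloud, miR-15b-5p follows the line, and miR-195a-5p lies above it.

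The first question of the design is whether CM and Ctrl mice differed at each month. Differences were tested with edgeR's quasi-likelihood test on counts, with Benjamini-Hochberg adjustment over all miRNAs tested, and a miRNA was called at an adjusted p under 0.05. Log2 differences are CM minus Ctrl. At month 0, when 0.209% of 478 miRNAs were called, none of the 6 members was. Their log2 differences were 0.17 for mmu-miR-15b-5p (SE 0.13, adjusted p = 0.618), 0.13 for mmu-miR-322-5p, -0.01 for mmu-miR-15a-5p, -0.13 for mmu-miR-195a-5p, -0.19 for mmu-miR-497a-5p and, on recovered reads, -0.06 for mmu-miR-16-5p. mmu-miR-15b-5p stood at 1646 to 2695 CPM in the 7 CM mice and at 1819 to 2536 CPM in the 7 Ctrl mice at that time, so the arms overlapped.

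At month 1, mmu-miR-15b-5p was higher in CM blood. The 7 CM libraries held 2003, 2065, 2406, 2621, 2841, 4922 and 5410 CPM, and the 7 Ctrl libraries 1545 to 2321 CPM with a median of 2005. Thus 5 of 7 CM libraries lay above all Ctrl libraries, and the 2 highest came from mice 3368 and 3336. The log2 difference was 0.65 (SE 0.22, 1.57-fold, edgeR adjusted p = 0.0408), and 0.70 (SE 0.24, adjusted p = 0.0328) on recovered reads. It was the only member called among 6, while 27.5% of the 472 miRNAs tested were called (31.4% on recovered reads). The call was lost when either mouse 3336 (0.56, adjusted p = 0.0643) or mouse 3368 (0.49, adjusted p = 0.0854) was left out, or any 1 of 5 Ctrl mice (3339, 3340, 3346, 3349 or 3350, adjusted p from 0.0523 to 0.0804). Over all 39 alternatives the difference stayed between 0.47 and 0.81, with adjusted p from 0.00933 to 0.346.

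Within libraries of the same G number the month 1 difference of mmu-miR-15b-5p was 1.36 in G3 (1 CM and 1 Ctrl library), 0.44 in G5 (2 and 3 libraries) and -0.06 in G6 (1 and 2 libraries). With the G number as a term in the fit it was 0.49 (adjusted p = 0.346). Red cell miRNAs moved along with it. All 6 of 6 listed erythroid miRNAs were called higher in CM mice at month 1, with a median log2 difference of 2.72 against -0.10 for all miRNAs tested. That median is from the count table. There miR-486a-5p, miR-486a-3p and miR-486b-3p had mean log2 ratios of count to recovered reads of -7.44, -4.12 and -3.39. The summed erythroid level was 37080 to 425222 CPM (median 49289) in CM libraries and 20953 to 44789 CPM (median 26065) in Ctrl libraries. No erythroid, myeloid, lymphocyte or leukocyte marker of the lists was at 0 in any training library. The summed medians in CM and Ctrl libraries were 4198 and 4412 CPM for the myeloid list. They were 34931 and 44263 CPM for the lymphocyte list, and 39128 and 54003 CPM for the leukocyte list. The part of red cells in the mmu-miR-15b-5p difference was not tested, and in bulk blood more cells of a type and more of the miRNA per cell cannot be told apart.

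The other arm of the same hairpin, mmu-miR-15b-3p, had a log2 difference of 0.61 (SE 0.25) at month 1 without passing the test (adjusted p = 0.0801). mmu-miR-497a-5p had 0.60 (SE 0.27, adjusted p = 0.123), and its CM libraries spanned 10.93 to 40.34 CPM against 9.895 to 17.17 CPM in Ctrl libraries. For mmu-miR-15a-5p (-0.02, SE 0.23), mmu-miR-322-5p (0.09, SE 0.13) and mmu-miR-195a-5p (0.20, SE 0.19) no difference was detected. mmu-miR-16-5p gave 0.04 (SE 0.22, adjusted p = 0.895) on recovered reads and -0.14 (SE 0.81) on counts.

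At months 2 and 3 the member that differed was mmu-miR-322-5p. At month 2 its 6 CM libraries held 542.7, 550.0, 588.2, 635.7, 646.1 and 928.7 CPM, and its 7 Ctrl libraries 178.4, 276.8, 344.0, 406.1, 418.3, 492.3 and 512.9 CPM. The arms did not overlap, as was the case for 9.36% of the 481 miRNAs tested. The lowest Ctrl value came from mouse 3349 and the highest CM value from mouse 3338. The log2 difference was 0.73 (SE 0.22, 1.66-fold, adjusted p = 0.0372), and 0.75 (SE 0.19, adjusted p = 0.0155) on recovered reads. It was again the only member called, with 13.5% of 481 miRNAs called in the background (22.2% on recovered reads).

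Without the library of mouse 3349 the difference of mmu-miR-322-5p at month 2 was 0.62 and stayed called (adjusted p = 0.025). It was lost without Ctrl mouse 3339, 3346 or 3350 (0.72 to 0.75, adjusted p = 0.0579 to 0.0676), with sex in the fit (0.76, adjusted p = 0.0651) and with the G number in the fit (0.88, adjusted p = 0.164). Within G numbers it was 0.91 in G3 (1 CM and 1 Ctrl library) and 0.81 in G7 (1 and 2 libraries). Without mouse 3349, mmu-miR-15a-5p was called lower in CM mice (-0.47, adjusted p = 0.0105), whereas with that mouse it was not (-0.33, SE 0.22, adjusted p = 0.319). The remaining members were not called at month 2 either, with 0.40 (SE 0.21) for mmu-miR-15b-5p, 0.25 (SE 0.31) for mmu-miR-195a-5p, -0.50 (SE 0.27) for mmu-miR-497a-5p and, on recovered reads, 0.28 (SE 0.35) for mmu-miR-16-5p.

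At month 3, mmu-miR-322-5p stood at 331.8, 525.2, 551.3, 568.9, 587.8, 588.7 and 691.9 CPM in the CM mice and at 350.6 to 445.8 CPM (median 391.6) in the 7 Ctrl mice. So 6 of 7 CM libraries lay above all Ctrl libraries and 1, from mouse 3334, below all of them. The log2 difference was 0.56 (SE 0.14, 1.47-fold, adjusted p = 0.0119), and 0.55 (SE 0.13, adjusted p = 0.0058) on recovered reads, with 22.0% of 455 miRNAs called (27.8% on recovered reads). The call held with each of the 14 mice left out in turn (0.50 to 0.65) and without mice 3334 and 3335 together (0.64, adjusted p = 0.00319). With the G number in the fit it was 0.09 (adjusted p = 0.899), a fit that rests on the 1 G number found in both arms, whose CM library is that of mouse 3334 (331.8 against 367.7 CPM). Of the members not called at month 3, mmu-miR-15b-5p had 0.32 (SE 0.16, adjusted p = 0.158), with 4 CM libraries above and 3 below all Ctrl libraries. mmu-miR-15a-5p (-0.07, SE 0.17), mmu-miR-195a-5p (-0.08, SE 0.16) and mmu-miR-497a-5p (0.08, SE 0.16) lay near 0, and mmu-miR-16-5p had -0.14 (SE 0.11) on recovered reads.

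Some neighbours of mmu-miR-322-5p on chromosome X differed in the same months. Its other arm, mmu-miR-322-3p (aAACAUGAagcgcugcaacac, a different seed), was called higher in CM mice at month 1 (0.64, SE 0.22, adjusted p = 0.0465), month 2 (0.82, SE 0.22, adjusted p = 0.0226) and month 3 (0.94, SE 0.13, adjusted p = 0.00048). At month 0, 3 of its 7 CM libraries already lay above all 7 Ctrl libraries. The ratio of the 5p to the 3p arm of miR-322 then had a median of 4.3 in CM and 6.29 in Ctrl mice. At month 3 the CM libraries of mmu-miR-322-3p held 140.2 to 214.7 CPM and its Ctrl libraries 87.1 to 105.3 CPM. All 7 CM libraries lay above all Ctrl libraries, where 5.71% of the 455 miRNAs tested had arms that did not overlap, and the single pair within a G number differed by 1.06. mmu-miR-351-5p was called higher at the same 3 months (0.78, 0.63 and 0.77), and mmu-miR-503-5p, the partner of miR-322 in the cluster, at month 3 (0.63, SE 0.13, adjusted p = 0.00363, 471.6 to 781.7 against 405.8 to 498.5 CPM). Within G numbers at month 1, mmu-miR-322-3p differed by 0.81 in G3, 0.99 in G5 and -0.2 in G6. With the G number in the fit, 10 of 472 miRNAs were called at month 1, 0 of 481 at month 2 and 6 of 455 at month 3. No month 2 call held in that fit. Which of these neighbours were among those called at months 1 and 3 is not given here.

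Not every product of that cluster followed. mmu-miR-503-3p was lower in CM mice at month 3 (-0.97, SE 0.25, adjusted p = 0.0147) and mmu-miR-542-3p at month 1 (-0.60, SE 0.18, adjusted p = 0.0233), while mmu-miR-450b-3p and mmu-miR-450b-5p were not called in those months. Over the 18 listed other arms and cluster neighbours of the members, of which 14 were tested, 2 were higher and 1 lower at month 1, 2 higher and 1 lower at month 2, and 3 higher and 1 lower at month 3. Of all miRNAs tested, 27.5%, 13.5% and 22.0% were called at these months, so these counts lie close to the background. Their median log2 differences were 0.06, 0.13 and 0.19, against -0.10, -0.02 and 0.07 for all miRNAs tested.

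From the Dleu2 locus on chromosome 14, mmu-miR-16-1-3p was lower in CM mice at month 2 (-1.40, SE 0.40, adjusted p = 0.0313). Its 6 CM libraries held 2.931 to 5.74 CPM and its 7 Ctrl libraries 5.849 to 41.85 CPM, without overlap. Arms that did not overlap were found for 9.36% of the 481 miRNAs tested at that month. These levels are close to what a few reads are worth, and 41.85 CPM was the highest value of this miRNA in any training library. The Ctrl libraries include that of mouse 3349, which stood apart for several members. The difference of mmu-miR-16-1-3p without that mouse is not given here. mmu-miR-15a-3p of the same hairpin cluster had -0.69 (SE 0.26, adjusted p = 0.0948). With the G number in the fit, 0 of 481 miRNAs were called at month 2, so the call of mmu-miR-16-1-3p did not hold.

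Blood cell markers moved in these months too. At month 2, 4 of 6 erythroid miRNAs were higher in CM mice (median 1.18, summed level 9373 to 37997 against 9325 to 19846 CPM), and at month 3, 5 of 6 (median 1.09, 31405 to 69762 against 23931 to 39121 CPM). The median sums in CM and Ctrl libraries were 25578 and 15417 CPM at month 2, and 42132 and 36575 CPM at month 3. miR-223-3p, typical of myeloid cells, was higher at month 3 (0.74, SE 0.19, adjusted p = 0.0122), and miR-150-5p, typical of mature lymphocytes, was lower (-0.70, SE 0.20, adjusted p = 0.0222). Their other arms had CM and Ctrl medians of 146.6 and 129.3 CPM (miR-223-5p) and of 189.8 and 298.7 CPM (miR-150-3p) at month 3. The leukocyte miRNA miR-142a-3p had CM and Ctrl medians of 18538 and 30603 CPM at month 2 and of 18560 and 32826 CPM at month 3. For miR-142a-5p they were 15554 and 23368 CPM, then 18082 and 17100 CPM. Their part in the mmu-miR-322-5p difference was not tested.

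**Figure D3:**
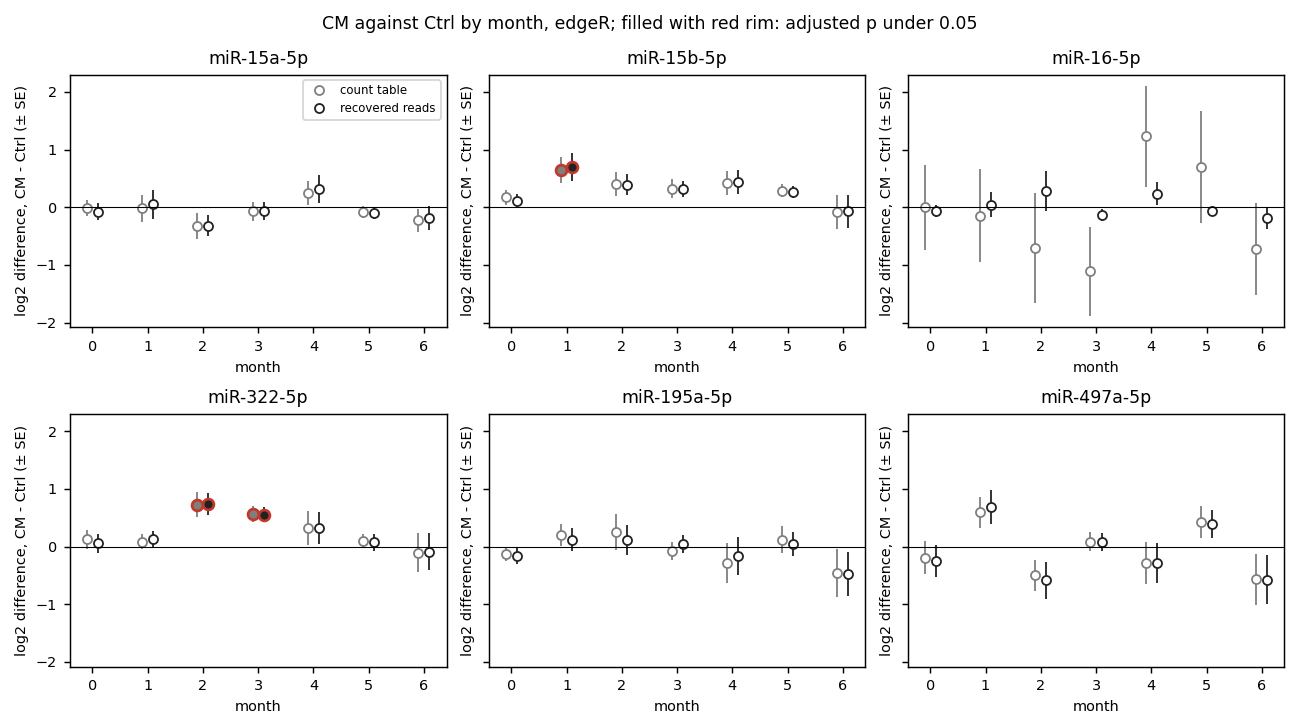
Log2 difference between CM and Ctrl mice (y axis, error bars are the SE) at months 0 to 6 (x axis) for each member, grey from the count table and black from the reads recovered from the deposited CPM. Filled points with a red rim passed an adjusted p under 0.05, which holds for miR-15b-5p at month 1 and miR-322-5p at months 2 and 3 in both tables, and the 2 tables part most for miR-16-5p.

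After month 3 no member was called. At month 4, 0.837% of 478 miRNAs were called. mmu-miR-15b-5p had a log2 difference of 0.42 (SE 0.21, adjusted p = 0.313), with 3 of 6 CM libraries above all 7 Ctrl libraries, and mmu-miR-322-5p had 0.32 (SE 0.29, adjusted p = 0.591). mmu-miR-15a-5p had 0.25 (SE 0.21), mmu-miR-195a-5p -0.29 (SE 0.35), mmu-miR-497a-5p -0.28 (SE 0.36) and, on recovered reads, mmu-miR-16-5p 0.24 (SE 0.20). No G number was found in both arms at that month, so arm and G number cannot be told apart there. At month 5, 0% of 505 miRNAs were called by edgeR, with 21.6% at an unadjusted p under 0.05, and DESeq2 called 18. mmu-miR-15b-5p had 0.29 (SE 0.11, adjusted p = 0.18), with 5 CM libraries at 2170 to 2630 CPM and 7 Ctrl libraries at 1650 to 2318 CPM. The others had 0.43 (mmu-miR-497a-5p, SE 0.27), 0.12 (mmu-miR-195a-5p, SE 0.24), 0.10 (mmu-miR-322-5p, SE 0.11), -0.07 (mmu-miR-15a-5p, SE 0.10) and, on recovered reads, -0.06 (mmu-miR-16-5p, SE 0.08). At month 6, 0% of 444 miRNAs were called by edgeR, 31 had an unadjusted p under 0.05, and DESeq2 called 0. All 6 members had a negative difference, none of them called. These were -0.08 for mmu-miR-15b-5p (SE 0.30), -0.11 for mmu-miR-322-5p (SE 0.34), -0.23 for mmu-miR-15a-5p (SE 0.20), -0.46 for mmu-miR-195a-5p (SE 0.41), -0.57 for mmu-miR-497a-5p (SE 0.45) and -0.72 for mmu-miR-16-5p (SE 0.80, and -0.19, SE 0.18, on recovered reads).

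For mmu-miR-16-5p the monthly differences from the count table ran from -1.11 (month 3) to 1.23 (month 4), none of them called. On recovered reads they ran from -0.19 to 0.28, with adjusted p of 0.391 or more. At month 3 the 7 CM libraries held 32618 to 44818 CPM and the 7 Ctrl libraries 35238 to 53503 CPM, and at month 5 they held 48047 to 51693 and 46660 to 62007 CPM. The arms overlapped at every month for this member.

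To have 1 value per animal, log2 CPM was averaged over months 1 to 6 for each mouse and compared between the 7 CM and 7 Ctrl mice with limma. The months covered differed between the arms. All 7 Ctrl mice had a library at each month, but only 6 CM mice did at months 2 and 4 and 5 at months 5 and 6. Levels also changed with month, so arm and months covered cannot be fully told apart in these means. CM mice had more mmu-miR-15b-5p (0.28, SE 0.07, adjusted p = 0.00933) and more mmu-miR-322-5p (0.27, SE 0.09, adjusted p = 0.0231). The other 4 members were not called, with -0.13 for mmu-miR-15a-5p, -0.14 for mmu-miR-195a-5p, -0.22 for mmu-miR-497a-5p and, on recovered reads, 0.06 for mmu-miR-16-5p (-0.27 on counts). On recovered reads the same 2 members were called, with 0.32 (SE 0.07, adjusted p = 0.00152) and 0.32 (SE 0.09, adjusted p = 0.00718). A large share of all miRNAs was called too, 37.1% of 496 (40.0% on recovered reads), so 2 of 6 members is close to the background.

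These means carry what the mice had at month 0. When each mouse was set against its own month 0 library, mmu-miR-15b-5p had 0.17 (adjusted p = 0.492) and mmu-miR-322-5p 0.23 (adjusted p = 0.513). The interaction of arm and month was tested at months 1 and 3. At month 1, where 8.46% of 520 miRNAs were called, mmu-miR-15b-5p had 0.59 (SE 0.27, adjusted p = 0.151) and mmu-miR-497a-5p 0.90 (SE 0.41, adjusted p = 0.155), and on recovered reads they had 0.53 and 0.87 and mmu-miR-16-5p 0.05. The other members had 0.44 (mmu-miR-195a-5p), 0.12 (mmu-miR-15a-5p) and 0.07 (mmu-miR-322-5p). At month 3, where 2.33% of 515 were called, mmu-miR-322-5p had 0.43 (SE 0.21, adjusted p = 0.296) and, on recovered reads, 0.39 (SE 0.21). The others had 0.26 (mmu-miR-497a-5p), 0.14 (mmu-miR-15b-5p), 0.04 (mmu-miR-195a-5p), -0.05 (mmu-miR-15a-5p) and, on recovered reads, -0.18 (mmu-miR-16-5p). No member was called in either, except mmu-miR-322-5p at month 3 when CM mouse 3334 was left out (0.58, adjusted p = 0.0445), alone or together with mouse 3335 (0.62, adjusted p = 0.0484).

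The ratio of mmu-miR-15b-5p to mmu-miR-15a-5p sets a product of the chromosome 3 cluster against a product of the chromosome 14 cluster within a library. It does not depend on the scaling between libraries. It does not stand for the clusters as wholes, since mmu-miR-15b-5p parted from the other arm of its hairpin in Ctrl mice (below). Averaged over months 1 to 6, its log2 value was 0.27 ± 0.18 (SD, n = 7 mice) in CM mice and -0.14 ± 0.09 (SD, n = 7) in Ctrl mice. The CM mice spanned 0.02 to 0.62 and the Ctrl mice -0.23 to 0.01, so all 7 CM mice lay above all 7 Ctrl mice. The difference of 0.41 had p = 0.000583 in the two-sided exact permutation test, the smallest value that test can give here, and 0.00117 after adjustment over the 2 ratio tests. It stayed between 0.35 and 0.45 with each mouse left out. How many ratios of other miRNA pairs set the arms apart in this way was not counted. In the mouse means above, 37.1% of 496 miRNAs were called. As in the means above, not every CM mouse covers every month, and the ratio changed with month (below).

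Part of the ratio difference was already there at month 0, when the median ratio was 0.81 in CM and 0.68 in Ctrl mice. As a change from month 0 of the same mouse, the arms differed by 0.20 (exact permutation p = 0.279). By month the CM medians were 1.06, 1.73, 1.18, 1.45, 0.74 and 1.61 at months 1 to 6, and the Ctrl medians 0.67, 0.91, 0.89, 1.51, 0.55 and 1.48. The arms stood apart most at months 1 and 2 and met at months 4 and 6, and both dropped at month 5. The ratio of mmu-miR-16-2-3p to mmu-miR-16-1-3p, which tell the 2 miR-16 loci apart, took another course. Its CM medians were 9.62, 10.0, 17.9, 8.25, 9.14, 7.58 and 9.48 at months 0 to 6. Its Ctrl medians were 11.7, 7.02, 7.47, 10.3, 9.91, 6.45 and 7.9. The difference between CM and Ctrl mice in that ratio was not tested.

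**Figure D4:**
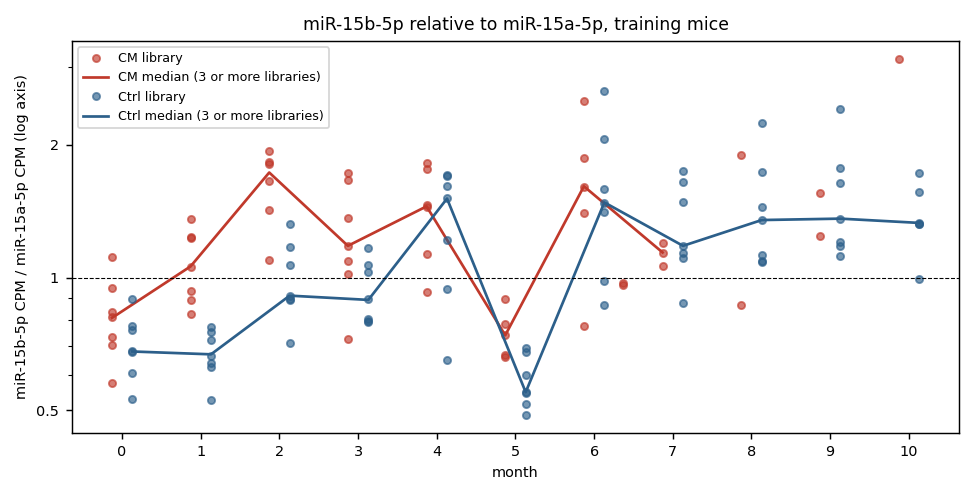
Ratio of miR-15b-5p CPM to miR-15a-5p CPM (y axis, log scale) by month (x axis), 1 point per training library, red for CM and blue for Ctrl, lines through medians of 3 or more libraries. The CM median is 1.06 against 0.67 at month 1 and 1.73 against 0.91 at month 2, and both arms are near 1.5 at months 4 and 6 and below 1 at month 5.

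The next comparison sets the last library of each CM mouse, taken between month 4 and month 10, against its library of month 0. mmu-miR-322-5p fell in 7 of 7 mice. It went from 872.3 to 224.2 CPM in mouse 3334, from 594.6 to 279.0 in mouse 3336, from 436.1 to 339.4 in mouse 3338, from 646.3 to 138.3 in mouse 3341, from 446.1 to 362.1 in mouse 3357, from 671.6 to 514.1 in mouse 3368 and from 545.4 to 473.5 in mouse 3370. As a fold, the drop was steepest in mouse 3341, and 5 of the 7 last values lay below all month 0 values. The log2 difference was -0.92 (SE 0.28, edgeR adjusted p = 0.0181), and -0.88 (SE 0.26, adjusted p = 0.0134) on recovered reads. It was the 1 member of 6 called from counts, while 39.0% of 446 miRNAs were called (45% of 453 on recovered reads), with a median over all miRNAs of -0.06 (-0.14 on recovered reads).

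With mice as a replicate block the fall of mmu-miR-322-5p was -0.98 (adjusted p = 0.0425). It lost the call without mouse 3334 (-0.75, adjusted p = 0.0679), without mouse 3336 (-0.90, adjusted p = 0.0536) and with the G number in the fit (-0.62, adjusted p = 0.437). Over 24 alternatives the adjusted p ran from 0.0075 to 0.437. In Ctrl mice mmu-miR-322-5p fell as well in 6 of 7 between months 0 and 6, by -0.30 (SE 0.19, adjusted p = 0.276). The 2 arms were not compared in this, since the CM libraries span several months.

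mmu-miR-15b-5p went the other way, upward in 6 of 7 CM mice. As a fold, the largest gain was from 1646 to 3616 CPM in mouse 3338, followed by 2695 to 5700 CPM in mouse 3368, and mouse 3341 went from 2482 to 2391. The log2 difference of 0.60 (SE 0.23) missed the threshold on counts (adjusted p = 0.0532) and passed it on recovered reads (0.65, SE 0.20, adjusted p = 0.0189). The ratio of mmu-miR-15b-5p to mmu-miR-15a-5p rose in 6 of 7 mice, by 0.68 on the log2 scale at the mean, with single mice between -0.49 and 1.95. A two-sided exact sign-flip permutation test gave p = 0.0625, where 0.0156 is the smallest value possible. Without mouse 3341, the single mouse in which the ratio fell, the mean change was 0.87.

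The other members showed no common direction in the last CM libraries. mmu-miR-15a-5p rose in 3 and fell in 4 mice, mmu-miR-195a-5p rose in 4 and fell in 3, mmu-miR-497a-5p rose in 2 and fell in 5, and mmu-miR-16-5p rose in 2 and fell in 5 (recovered reads -0.19, SE 0.16, adjusted p = 0.33). Without mouse 3368, mmu-miR-497a-5p was called lower (-0.94, adjusted p = 0.0216), against -0.27 (SE 0.44, adjusted p = 0.639) with it.

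Of the 14 tested relatives of all the clusters, 4 were called lower in the last CM libraries and none higher, a smaller share than the 39.0% of all miRNAs. All 4 come from the X chromosome cluster, as do most of the listed relatives. The 4 were mmu-miR-450b-3p (-1.24, SE 0.31), mmu-miR-450b-5p (-0.99, SE 0.26), mmu-miR-542-3p (-1.10, SE 0.29) and mmu-miR-542-5p (-1.10, SE 0.31), with adjusted p of 0.00665 to 0.0109. With the G number in the fit, 0 of 446 miRNAs were called in this comparison, so none of these calls held. The median of the 14 relatives was -0.61. mmu-miR-322-3p (-0.63, SE 0.35) and mmu-miR-503-5p (-0.60, SE 0.32) did not pass (adjusted p = 0.157 and 0.138). In the same libraries miR-223-3p was lower (-1.60, SE 0.42, adjusted p = 0.00934) and miR-150-5p was lower (-0.88, SE 0.33, adjusted p = 0.0483), and of 6 erythroid miRNAs 2 were higher and 1, miR-451a, lower (-0.91, SE 0.34, adjusted p = 0.0462). The part of these shifts in the fall of mmu-miR-322-5p was not tested.

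Ctrl mice give the course of the family over the same 6 months without the fusion gene, and here more members passed the test (3 of 6) than in any other comparison. mmu-miR-15b-5p rose in 7 of 7 Ctrl mice between months 0 and 6. Its values went from 1923 to 6742 CPM in mouse 3335, 1819 to 4737 in mouse 3339, 2015 to 4257 in mouse 3340, 2536 to 2695 in mouse 3342, 2036 to 6136 in mouse 3346, 1827 to 4941 in mouse 3349 and 2207 to 5396 in mouse 3350. All 7 month 6 values lay above all month 0 values, with mouse 3342 only just so, and 4.85% of the 474 miRNAs tested had months that did not overlap. The log2 difference was 1.33 (SE 0.19, 2.51-fold, edgeR adjusted p = 0.000265).

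The 2 members of the chromosome 11 cluster rose with it. mmu-miR-497a-5p went from 8.801 to 27.46 CPM at month 0 (median 14.58) to 21.73 to 64.44 CPM at month 6 (median 41.54). It was higher in 7 of 7 mice, by a log2 difference of 1.39 (SE 0.30, 2.63-fold, adjusted p = 0.00426). mmu-miR-195a-5p went from 20.45 to 31.17 CPM (median 26.25) to 28.66 to 73.48 CPM (median 42.73), also up in 7 of 7 mice, by 1.09 (SE 0.20, 2.14-fold, adjusted p = 0.00159). In both, 6 of 7 month 6 values lay above all month 0 values.

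These were 3 of 6 members called against a background of 20.5% of 474 miRNAs (21.9% of 461 on recovered reads, where the same 3 were called, with 1.35 for mmu-miR-15b-5p, 1.42 for mmu-miR-497a-5p and 1.02 for mmu-miR-195a-5p). All 3 kept the call in each of the 24 alternatives run, including the replicate block over mice (1.29, 1.44 and 1.03, adjusted p = 0.0066, 0.0193 and 0.0163) and the G number (1.35, 1.4 and 1.11, adjusted p = 0.00834, 0.0198 and 0.0111). The other 3 were not called. mmu-miR-15a-5p had 0.23 (SE 0.16, adjusted p = 0.312), mmu-miR-16-5p 0.27 (SE 0.15, adjusted p = 0.198) on recovered reads, and mmu-miR-322-5p -0.30 as given above.

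The Ctrl levels stayed up after month 6. At months 7 to 10 the medians of mmu-miR-15b-5p were 4161, 4323, 3759 and 3454 CPM, those of mmu-miR-497a-5p 41.43, 54.27, 48.84 and 44.76 CPM, and those of mmu-miR-195a-5p 54.49, 59, 59.81 and 50.06 CPM. The course before month 6 was not a steady rise. The Ctrl median of mmu-miR-15b-5p was 2885 CPM at month 4 and 2025 CPM at month 5.

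The arms of the miR-15b hairpin parted over this time. mmu-miR-15b-3p (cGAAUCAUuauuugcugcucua) rose in 4 and fell in 3 Ctrl mice, from a median of 216.8 to 234.0 CPM (0.17, SE 0.16, adjusted p = 0.475), while mmu-miR-15b-5p of the same hairpin rose in all 7. The ratio of the 5p to the 3p arm was 8.41 to 11.4 (median 9.29) at month 0 and 13.8 to 38.7 (median 21.6) at month 6, without overlap. The CM mice had medians of 10.3 at month 0 and 20.2 at month 6. How many other hairpins had arm ratios without overlap was not counted. The arms of the miR-16 hairpins, mmu-miR-16-1-3p (0.77, SE 0.21, adjusted p = 0.021) and mmu-miR-16-2-3p (0.48, SE 0.13, adjusted p = 0.0211), were called higher in Ctrl mice at month 6.

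Of the 14 tested relatives, 3 were higher and 2 lower in Ctrl mice at month 6 (median 0.08, against 0.03 for all miRNAs), where 20.5% of all miRNAs were called. The lower ones were again mmu-miR-450b-3p (-1.35, SE 0.17, adjusted p = 6.78e-05) and mmu-miR-450b-5p (-0.86, SE 0.17, adjusted p = 0.00298). The third of the higher ones, beside the miR-16 arms, was mmu-miR-503-3p (1.24, SE 0.28, adjusted p = 0.00636). Blood cell markers shifted as well. Of 6 erythroid miRNAs 1 was called, miR-144-3p (1.22, SE 0.41, adjusted p = 0.0469), and the summed erythroid level was 22125 to 200999 CPM (median 43430) at month 0 and 55722 to 229558 CPM (median 87414) at month 6. Both myeloid miRNAs were lower, with sums of 6496 to 9074 CPM at month 0 and 2439 to 4038 CPM at month 6. The part of these shifts in the rise of the 3 members was not tested.

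**Figure D5:**
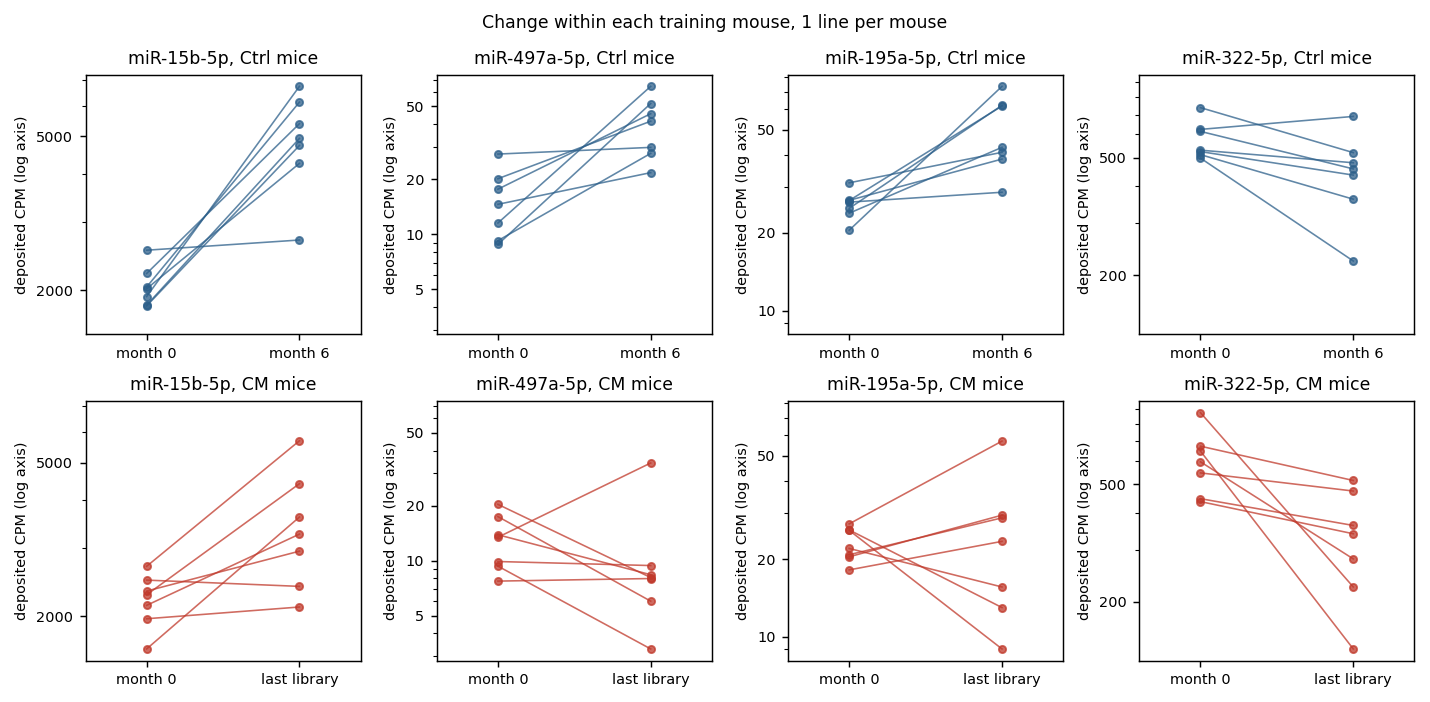
Change within each training mouse for 4 members, 1 line per mouse, y axis in deposited CPM on a log scale. The upper panels join months 0 and 6 of the 7 Ctrl mice, where miR-15b-5p, miR-497a-5p and miR-195a-5p rise in 7 of 7, and the lower panels join month 0 and the last library of the 7 CM mice, where miR-322-5p falls in 7 of 7.

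Members did not move as 1 unit across the training libraries. As a description over libraries that share mice, months and sequencing, the Spearman correlation of CPM was 0.81 between mmu-miR-15a-5p and mmu-miR-16-5p, but 0.31 between mmu-miR-15b-5p and mmu-miR-16-5p, 0.25 between mmu-miR-15a-5p and mmu-miR-15b-5p, and between -0.01 and 0.02 for mmu-miR-322-5p with each of those 3. Among 190 miRNAs with a mean of 100 CPM or more, those nearest to mmu-miR-15a-5p were mmu-miR-16-5p (0.81), mmu-miR-106b-5p (0.79) and mmu-miR-18a-5p (0.70). Nearest to mmu-miR-16-5p were mmu-miR-15a-5p (0.81), mmu-miR-106b-5p (0.70) and mmu-miR-17-3p (0.62).

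Nearest to mmu-miR-15b-5p were mmu-miR-103-3p (0.83), mmu-miR-25-3p (0.82) and mmu-miR-107-3p (0.81), with no member of its own family among them. Nearest to mmu-miR-322-5p were its cluster partner mmu-miR-503-5p (0.76), its own other arm mmu-miR-322-3p (0.69) and mmu-miR-148a-3p (0.64). With the red cell miRNA mmu-miR-451a, the correlation was 0.60 for mmu-miR-15a-5p, 0.60 for mmu-miR-16-5p, 0.54 for mmu-miR-15b-5p and 0.07 for mmu-miR-322-5p.

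In the validation mice only point 5 was deep enough for all 6 members. Levels are given as CPM of a library's own reads. mmu-miR-322-5p held 175, 263, 290, 299, 332 and 350 CPM in the 6 CM mice and 381, 386, 389, 398, 466 and 551 in the 6 Ctrl mice. All 6 CM values lay below all 6 Ctrl values, and 0.430% of the 930 miRNAs tested had arms that did not overlap in either direction. In the training mice of months 2 and 3 the CM values were the higher ones. The difference did not pass the test at point 5. What month point 5 stands for is not given in the labels, so the 2 cohorts cannot be matched in time. The limma log2 difference on the deposited CPM was -0.53 (SE 0.31, adjusted p = 0.87), and edgeR on recovered reads gave -0.47 (SE 0.18, unadjusted p = 0.0187, adjusted p = 0.299). No miRNA passed in that comparison, 0% of 930, with 54 at an unadjusted p under 0.05 by limma and 70 by edgeR on recovered reads.

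The other members overlapped between arms at point 5. mmu-miR-16-5p held 37618 to 45322 CPM in 5 CM mice and 18435 in mouse 2718, whose library was the shallowest of the 12, against 32610 to 47044 in the Ctrl mice. mmu-miR-15b-5p held 1482 to 2715 in CM and 1617 to 3179 in Ctrl mice, and mmu-miR-15a-5p 1817 to 3030 and 2118 to 3539. mmu-miR-195a-5p held 10.5 to 31.4 and 20.1 to 41.9 CPM, and mmu-miR-497a-5p 2.13 to 16.5 and 8.69 to 29. Their limma log2 differences were -0.14 (mmu-miR-16-5p), 0.03 (mmu-miR-15b-5p), -0.14 (mmu-miR-15a-5p), -0.44 (mmu-miR-195a-5p) and -0.81 (mmu-miR-497a-5p), with adjusted p of 0.87 to 0.996. The median over all miRNAs was -0.04. None of the 16 tested relatives was called.

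At the other validation points the family was at the limit of detection. Over the 90 shallow libraries, mmu-miR-16-5p had at least 1 read in 64 libraries and at most 7 reads in any. mmu-miR-15b-5p had 21 reads in all, mmu-miR-322-5p 20, mmu-miR-15a-5p 3, mmu-miR-195a-5p 2 and mmu-miR-497a-5p 0, where 3 reads are the most that a count of 0 allows. mmu-miR-16-5p was tested at each of these points and mmu-miR-322-5p at point 1, and neither was called. The shares of miRNAs called by limma were 0% of 247 at point 1 (18 at an unadjusted p under 0.05), 2.78% of 144 at point 2, 0% of 165 at point 3 (1 unadjusted), 0% of 339 at point 4 (20 unadjusted), 0% of 239 at point 6 (5 unadjusted), 0% at point 7 (8 unadjusted) and 18.1% of 166 for point L (5 CM libraries) against point 1. A difference between arms of the size seen in the training mice was not detectable at this depth.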

How the data were processed

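Small RNA was sequenced from PBMC total RNA of 129 training and 102 validation libraries. Per the study's methods, the authors trimmed adapters with cutadapt, aligned to mm9 with Bowtie and the miRBase annotation, and scaled with TMM in edgeR. The submitters' processing notes also name SAMtools and GRCm38, so the build of the counting is not settled. The labels say that training samples were spread over randomized library batches and validation samples were processed as collected. The deposited training count table holds whole read counts per mature miRNA. The deposited CPM tables of both cohorts hold TMM-scaled CPM, a signal per library rather than whole reads, as the authors computed it, and their sums per library differ. Whole reads were recovered from the deposited CPM by the step that 1 read is worth (100.0% of values within 0.01 reads), with a range of 1376082 to 7520419 reads per training library.

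Groups came from the labels, with the mouse as the replicate. The members and all lists (18 precursor relatives, blood cell markers) were chosen with earlier results of these data known. Training comparisons used edgeR 4.0.16 (TMM, filterByExpr, quasi-likelihood test, two-sided), mouse means and validation used limma 3.58.1 (log2(CPM + 1) for validation, prior count 2 for mouse means), and DESeq2 1.42.0 was an alternative, all under R 4.3.3. A p adjusted by Benjamini-Hochberg under 0.05 was called. For edgeR, SE is the absolute log2 difference divided by the square root of F, and for limma it is the moderated standard error of the fit. Fits on recovered reads were added after the 2 tables were seen to differ. Libraries of month 6.5 entered only the last CM comparison. Ratios used counts + 0.5 (monthly medians CPM + 1) and exact permutation over mice. All 6 members were named in every training comparison across miRNAs and at validation point 5, precursor relatives mainly where called or where they mark a locus, and the 3 miRNAs of highest Spearman correlation with each member of mean 100 CPM or more. In data simulated for month 1 (471 miRNAs), edgeR recovered 90.3% of changes of 1 log2 unit and 100% of 2, with 2.13% of unchanged miRNAs called. For month 5 (507 miRNAs) it recovered 82.5% of changes of 1 log2 unit. The simulation gave every miRNA the same dispersion and held no effect of G number. It does not cover changes under 1 log2 unit, such as those called for members between arms. Month 0 and later libraries of 1 mouse are the same animal, which pairs them, but the deviations of paired libraries correlated weakly (median r of 0.09 over 7 CM pairs and -0.02 over 7 Ctrl pairs). Floors cover counting error only, since no collapsing of reads by molecular identifiers is described. The SE and SD values also hold the variation between mice. Python 3.11.15, pandas 2.3.3, numpy 2.4.6 and matplotlib 3.10.9 were used for tables and figures.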

Additional observations from a re-analysis of the deposited data

Results flagged for a closer look

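Within groups of 4 to 10 libraries, the highest or lowest library of a member was tested for standing apart by Dixon's ratio at the 95% level. Of 120 groups, 14 held such a library, where chance gives about 1 in 20.

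The Ctrl library of mouse 3349 at month 2 was the lowest for mmu-miR-16-5p (2492 CPM, others 32430 to 39121), mmu-miR-15a-5p (678 CPM, others 1986 to 2533) and mmu-miR-15b-5p (726 CPM, others 1805 to 2621), and the highest for mmu-miR-497a-5p (30.1 CPM, others 9.3 to 15.7). The month 6 library of the same mouse was the highest for mmu-miR-16-5p (80906 CPM, others 42485 to 50898) and mmu-miR-15a-5p (5715 CPM, others 2543 to 3398). At month 10, Ctrl mouse 3335 was the highest for mmu-miR-16-5p (68032 CPM, others 39764 to 43020) and mmu-miR-15a-5p (3986 CPM, others 2560 to 2908).

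The other libraries that stood apart concerned 1 member each. For mmu-miR-15a-5p it was CM mouse 3338 at month 4 (3907 CPM, others 2198 to 2806). For mmu-miR-16-5p these were Ctrl mouse 3342 at month 1 (33937 CPM, others 43625 to 49812) and validation CM mouse 2718 at point 5 (18435 CPM of its own reads, others 37618 to 45322). For mmu-miR-322-5p they were CM mouse 3338 at month 2 (929 CPM, others 543 to 646) and Ctrl mouse 3342 at month 5 (710 CPM, others 438 to 545), and for mmu-miR-497a-5p Ctrl mouse 3350 at month 5 (37.1 CPM, others 14.1 to 23.9). Why these libraries stood apart was not tested.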

How the results depend on the processing

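No called member changed direction under any alternative. The rise of mmu-miR-15b-5p, mmu-miR-195a-5p and mmu-miR-497a-5p in Ctrl mice was called in all 24 alternatives. The month 1 call of mmu-miR-15b-5p went from 1 member to 0 with no filter, on deposited CPM, and with the G number on counts or on recovered reads. The month 2 call of mmu-miR-322-5p went from 1 to 0 with no filter, with the G number on either table and with sex, and the month 3 call from 1 to 0 with no filter, with the G number on either table and with all libraries in 1 fit. The last CM comparison went from 1 member to 2 on recovered reads, with DESeq2, on deposited CPM and with recovered reads and the replicate block, and to 0 without mice 3334 and 3335 and with the G number on either table. The interaction of month 3 went from 0 to 1 without those mice. The mouse means went from 2 to 0 with no filter and as a change from month 0 in either table, and the ratio fell to 0.20 as a change from month 0. The causes were not tested.

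With 1 mouse left out, the members called were 0 to 1 at month 1 (0 to 2 on recovered reads), 0 to 2 at month 2 (1 to 2), 1 at month 3 (1 to 2), 0 at month 5 (0 to 1), 0 to 2 in the last CM comparison (1 to 3), 3 in Ctrl mice, 0 to 1 in the month 3 interaction and 1 to 2 in the mouse means, where mouse 3368 ended the call of mmu-miR-322-5p (0.24, adjusted p = 0.0506). The ratio changes were 0.35 to 0.45 and 0.47 to 0.87. The paired fit with mice as a replicate block changed no call of a member on counts (1 in the last CM comparison, 3 in Ctrl mice, 0 in the interactions). Uncalled differences changed sign 144 times over alternatives for mmu-miR-16-5p and 5 to 66 times for the other members.

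Counts of all miRNAs called moved by over 1.5 times as follows. With the G number they went from 130 to 10 at month 1 (15 on recovered reads), from 65 to 0 at month 2 (12, and edgeR gave 86 at an unadjusted p under 0.05 on counts), from 100 to 6 at month 3 (9), from 174 to 0 in the last CM comparison (0 also on recovered reads, with 22.7% of miRNAs at an unadjusted p under 0.05 by edgeR) and from 97 to 32 in Ctrl mice (39). The month 2 count rose from 65 (13.5% of miRNAs tested) to 22.2% on recovered reads, 21.1% with DESeq2 and 20.8% on recovered reads with sex. With no filter counts went from 65 to 42 at month 2, from 4 to 13 at month 4, from 44 to 22 and from 12 to 6 in the interactions of months 1 and 3, from 4 to 2 at validation point 2 (0 rescaled without miR-5099, with 13 unadjusted by limma) and from 0 to 1 at points 1, 3, 6 and 7. At month 4, DESeq2 gave 20, recovered reads 10, the fit without mice 3334 and 3335 gave 7, sex 0 and all libraries 70. At month 0 the count of 1 went to 4 with DESeq2 and to 0 under 7 alternatives, among them recovered reads, no filter and the G number (64 unadjusted by edgeR). At month 5 it went from 0 to 53 without those mice and to 18 with all libraries or with DESeq2, and at month 6 to 19 with all libraries. The interaction of month 1 went from 44 to 67 on recovered reads, 27 with raw library sizes and 21 with the replicate block (27 on recovered reads), that of month 3 from 12 to 23 with DESeq2, to 6 on deposited CPM and, with the block, to 0 (75 unadjusted by edgeR, and 1 called on recovered reads), and the mouse means from 184 to 0 as a change from month 0 (92 unadjusted by limma). Point L went from 30 to 17 rescaled without miR-5099 and to 12 on recovered reads. Fits on recovered reads, the G number in comparisons over time and the ratio as a change from month 0 were chosen after seeing the data. The G number could not be fitted at month 4, nor recovered reads at validation point 7. Depth limits all validation points but point 5.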
